A study of Mus musculus with 8 samples.

Results

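The 7 genes Calb1, Calb2, Pvalb, Pcp4, Necab1, Necab2 and S100b encode calcium-binding or calmodulin-binding proteins that are used as markers of hippocampal cell types. They were taken by name, and all 7 were found among the 46517 genes of the bulk RNAseq tables and the 24051 genes of the single nucleus RNAseq (snRNAseq) matrices. Bulk RNAseq libraries and snRNAseq samples were each made from 2 Wls fl/-;Gfap-Cre mice, called mutants, and 2 Wls fl/+;Gfap-Cre mice, called controls, with both hippocampi of a single mouse in each of the 8 samples. The mice were 12 weeks old, labelled male, and littermates by the study's methods. All of them carried Gfap-Cre, a Cre recombinase driven by the Gfap promoter. In recombined cells the mutant is left with no functional copy of Wls, which encodes a protein required for Wnt secretion, whereas the control keeps 1 copy, and no group without Cre was compared. The mutant hippocampus retains few dentate granule cells (DGCs), most of them in the ventral dentate gyrus according to the study. The question addressed here was how transcripts of these genes were distributed over cell types and genotypes.

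Calbindin (Calb1), calretinin (Calb2) and parvalbumin (Pvalb) are EF-hand proteins that buffer calcium in the cytoplasm. Calbindin is a classical marker of DGCs and of some pyramidal cells and interneurons, calretinin of mossy cells and of interneurons that contact other interneurons, and parvalbumin of fast-spiking interneurons. Pcp4 (also PEP-19) binds calmodulin and is known from DGCs and CA2 pyramidal cells, Necab1 and Necab2 are neuronal EF-hand proteins, and S100b is an EF-hand protein of glia that is also secreted.

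In mm10 (GRCm38) coordinates with the gencode vM21 annotation, all 7 genes are protein-coding. Calb1 lies at chr4:15881264-15908064 on the plus strand and Necab1 at chr4:14952245-15149794 on the minus strand. Calb2 lies at chr8:110137502-110168210 (minus) and Necab2 at chr8:119446719-119472640 (plus). Pvalb is at chr15:78191114-78206400 (minus), Pcp4 at chr16:96467606-96525793 (plus) and S100b at chr10:76253853-76261159 (plus). Nearly the whole of Pcp4 lies within the annotated span of Igsf5 on the same strand, which ends at position 96525580, and reads in the shared span could be assigned to either gene or to none. The antisense genes Gm11837 and Gm11844 overlap Necab1 on the opposite strand, and Dip2a overlaps S100b on the opposite strand.

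The libraries differed in ways that bear on what follows. Bulk libraries held between 56002381 and 79576196 expected counts. The snRNAseq samples held 5304 and 10460 nuclei in mutants and 6469 and 7192 in controls, with medians of 4128 to 7545 UMIs per nucleus, and any pair of samples shared only 8 to 21 cell barcodes. DGC nuclei numbered 90 and 463 in mutant replicates 1 and 2 and 2336 and 2007 in control replicates 1 and 2. Replicate 2 of each genotype in bulk, although labelled male, had 230.1 and 518 CPM of Xist and 0.352 and 0.343 CPM of the Y-linked Ddx3y. Replicate 1 had 1.44 and 1.05 CPM of Xist and 54.5 and 58.3 CPM of Ddx3y, so that 1 library of each genotype went against its label. These bulk CPM are expected counts per 1000000 of the library after TMM scaling. Every snRNAseq sample had at most 3.49 CPM of Xist and at least 304 CPM of Y-linked transcripts. Wls itself was at 2.61 and 5.44 TPM in mutants and 10.5 and 10.1 TPM in controls in bulk, a log2 fold change of -1.31 ± 0.296 (SE) with an FDR of 0.117. Of 44 markers of the deposited cell types, 39 were highest in their own type. Among the neuron clusters, inhibitory cluster 15 went against its label, with 157.6 CPM of the glutamate transporter Slc17a7 against 5.01 CPM of Gad2. Inhibitory cluster 14 had 67.2 CPM of Slc17a7 against 31.0 CPM of Gad2, where inhibitory clusters 5, 12 and 18 had 28.2 to 36.9 CPM of Slc17a7. Excitatory clusters 7, 8, 10 and 13 had 209.7 to 322.7 CPM of Slc17a7. Excitatory cluster 19 had only 53.0 CPM, beside 23.1 CPM of Gad1, so that the transmitter identity of clusters 14 and 19 was not clear.

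In bulk RNAseq Calb1 showed the clearest difference of the 7 genes, and it was lower in mutants. Its level was 31.5 and 31.4 TPM in mutant replicates 1 and 2 and 70.0 and 70.7 TPM in control replicates 1 and 2. The groups stood far apart and the replicates of a genotype were nearly equal. Calb1 fell 2.10-fold (log2 fold change -1.07 ± 0.0478, SE, n = 2 per genotype; FDR 0.00780, edgeR's quasi-likelihood test adjusted over 20687 genes). Leaving out control replicate 1 gave an FDR of 0.111 and leaving out control replicate 2 one of 0.140, while the log2 fold change stayed between -1.10 and -1.05. In bulk tissue fewer cells of a type and less RNA per cell cannot be told apart.

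Pvalb moved the other way. It was at 66.5 and 77.0 TPM in mutants and at 45.4 and 49.4 TPM in controls, and the groups did not overlap. Pvalb rose 1.61-fold (log2 fold change 0.69 ± 0.0869; FDR 0.0433). The call was lost without control replicate 1 (FDR 0.272) and without control replicate 2 (FDR 0.310).

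Pcp4 had the highest bulk level of the 7 genes in TPM, which accounts for transcript length. It stood at 150.6 and 121 TPM in mutants and 229.6 and 206 TPM in controls, again with no overlap. The share of all genes with groups apart in bulk was not determined. Groups apart are therefore only a description here and for Calb1 and Pvalb above. The log2 fold change of Pcp4 was -0.60 ± 0.142 with an FDR of 0.125, and Pcp4 did not pass the test. At the same log2 fold change the FDR was 0.00151 with DESeq2 and 3.00e-04 with no filter on low counts, and without mutant replicate 1 it was 0.00271.

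The other 4 genes did not pass the test in bulk. Calb2 was at 54.1 TPM in mutant replicate 1 but 22.9 TPM in mutant replicate 2, on either side of the 51.8 and 48.5 TPM of controls, and its log2 fold change of -0.29 ± 0.406 (FDR 0.768) became -1.09 (FDR 0.00166) without mutant replicate 1 and 0.22 without mutant replicate 2. The mutant mice thus differed more from each other than the genotypes did. The libraries with high Xist, mutant replicate 2 and control replicate 2, were at 22.9 and 48.5 TPM of Calb2, and a part of Xist status in this was not tested. Necab2 was at 109.8 and 91.2 TPM in mutants and 87.5 and 72.7 TPM in controls (0.34 ± 0.174; FDR 0.377). S100b was at 109.6 and 95.9 TPM in mutants and 103 and 99.97 TPM in controls (0.10 ± 0.0955; FDR 0.625). Necab1 was at 26.3 and 27.5 TPM in mutants and 28.3 and 29.3 TPM in controls (-0.020 ± 0.0463; FDR 0.863).

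At a fold change (FC) over 3 with an FDR under 0.05, 0 of the 7 genes were called in bulk by edgeR or by DESeq2, where 0.198% of all genes tested were called lower and 0.0193% higher. At FDR below 0.05 with no minimum fold change, 1 gene (Calb1) was lower and 1 (Pvalb) higher, against 1.01% and 0.198% of all genes. At an unadjusted p under 0.05, Pcp4 was the only further gene, and the share of all genes at that p was not determined.

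**Figure D1:**
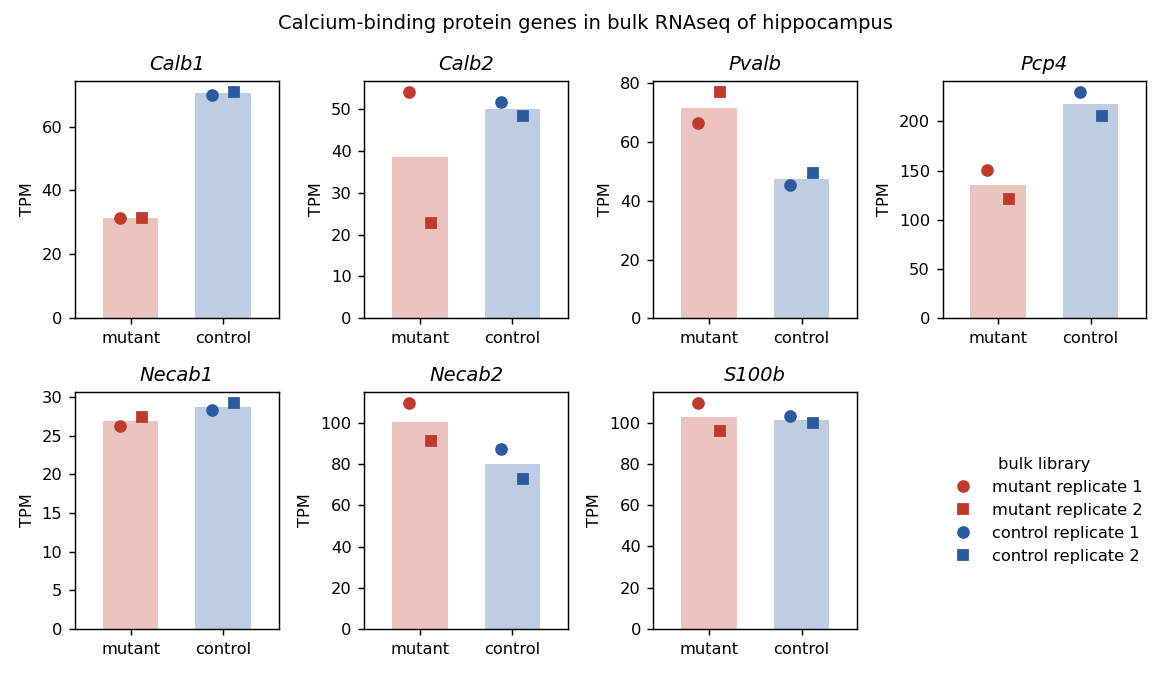
TPM of the 7 genes in each of the 4 bulk RNAseq libraries, with 1 panel per gene, points for libraries and bars for the mean of each genotype (n = 2). Calb1 lies near 31 TPM in both mutants and near 70 TPM in both controls, Pvalb is higher in both mutants, and the Calb2 points of the mutants stand at 54.1 and 22.9 TPM.

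In snRNAseq the levels were compared as CPM of the UMIs summed over the nuclei of a type, for the 11 cell types that had 10 or more nuclei in each sample. Because the types were made by clustering these nuclei, the order of types is a description with no test. Values between genes are not compared here, since UMIs are not scaled by length.

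Calb1 was highest in DGCs in every sample, with 128 and 107 CPM in mutants and 123 and 134 CPM in controls. CA1 pyramidal cells followed at 27.2 ± 5.27 CPM (SD over 4 samples) and inhibitory neurons at 26.5 ± 5.57 CPM, and these types overlapped each other but not the DGCs. After each nucleus was thinned to 1500 UMIs, 15.3% to 20.0% of DGC nuclei had a Calb1 UMI. In microglia, which are not known to express calbindin, the share was 0% in mutant replicate 1 (13 nuclei) and 1.51% in mutant replicate 2, and 4.76% and 4.18% in controls. CA2, CA3 and mossy cells had the lowest levels, between 1.36 and 10.1 CPM.

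Calb2 was highest in mossy cells, where it was at 59.0 and 80.4 CPM in mutants and 19.5 and 90.4 CPM in controls. Control replicate 1 stood well below the other 3 samples, on 8 UMIs in 38 nuclei. Oligodendrocyte precursor cells (OPCs) came next at 8.71 ± 5.00 CPM and inhibitory neurons at 6.42 ± 0.621 CPM, with overlapping ranges. Calb2 is itself among the markers used to check the mossy cell label.

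Pvalb was highest in inhibitory neurons, with 27.6 and 14.8 CPM in mutants and 27.8 and 28.3 CPM in controls. Mutant replicate 2 stood below the other 3 samples. All other types lay at or below 11.2 CPM in every sample.

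Pcp4 had no clear leading type. In controls it was at 73.8 and 54.6 CPM in OPCs, 71.8 and 54.1 CPM in oligodendrocytes, 52.4 and 56.1 CPM in DGCs, 58.1 and 38.8 CPM in astrocytes, 38.6 and 62.4 CPM in microglia, and 34.8 and 41.6 CPM in CA2 pyramidal cells. These ranges overlapped between neighbours in the order. CPM relates a gene to the other UMIs of the nucleus, and glial nuclei held few: per 100 nuclei of control replicate 2 there were 73.5 Pcp4 UMIs in CA2 cells, 45.4 in DGCs and 15.7 in microglia, at medians of 16520, 7688 and 2434 UMIs per nucleus. After thinning to 1500 UMIs, 7.19% and 8.27% of control DGC nuclei had a Pcp4 UMI, against 6.67% and 8.01% of control microglia. The Pcp4 share of DGCs at equal depth was thus about that of a type not known to express it, and that of CA2 cells was lower, at 3.96% and 3.61%. This order goes against the UMIs per 100 nuclei, so that no order of types is read from the shares. The ratio of Pcp4 to Calb1 UMIs in controls was 0.43 and 0.42 in DGCs, 3.25 and 2.42 in astrocytes and 7.2 and 4.69 in CA2 cells.

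Necab1 and Necab2 were highest in neuron types. Necab1 was at 248 ± 43.5 CPM in mossy cells, 214 ± 15.5 CPM in inhibitory neurons and 173 ± 11.1 CPM in the type called excitatory neurons, all far above the 38.2 ± 20.2 CPM of DGCs and 35.2 ± 8.14 CPM of CA1. Mossy cells and inhibitory neurons overlapped in range. Astrocytes (12.8 CPM), OPCs (11.9) and oligodendrocytes (8.38) had more Necab1 in mean than CA2 cells (7.30), with overlapping ranges. Necab2 was highest in CA2 pyramidal cells, at 63.0 and 66.3 CPM in mutants and 74.4 and 78.4 CPM in controls. It was at 30.1 ± 9.51, 29.5 ± 2.91, 29.5 ± 9.32 and 28.3 ± 5.76 CPM in excitatory neurons, inhibitory neurons, CA3 and mossy cells, which did not differ beyond their spread. OPCs, at 16.7 ± 10.2 CPM, and CA1, at 14.4 ± 1.62 CPM, overlapped as well.

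S100b was a glial transcript, at 92.1 ± 18.2 CPM in oligodendrocytes, 74.2 ± 20.7 CPM in OPCs and 64.8 ± 8.84 CPM in astrocytes, with overlapping ranges. CA2 pyramidal cells followed at 45.9 ± 2.38 CPM, ranging from 43.5 to 48.4 CPM over the 4 samples, above every other neuron type in mean. DGCs were near the bottom at 7.60 ± 2.19 CPM. Microglia had 0 S100b UMIs in mutant replicate 1 and in control replicate 1. In mutant replicate 1 only 13 microglia nuclei were present, and a count of 0 there allows up to 139 CPM by the limit of 3 counts.

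**Figure D2:**
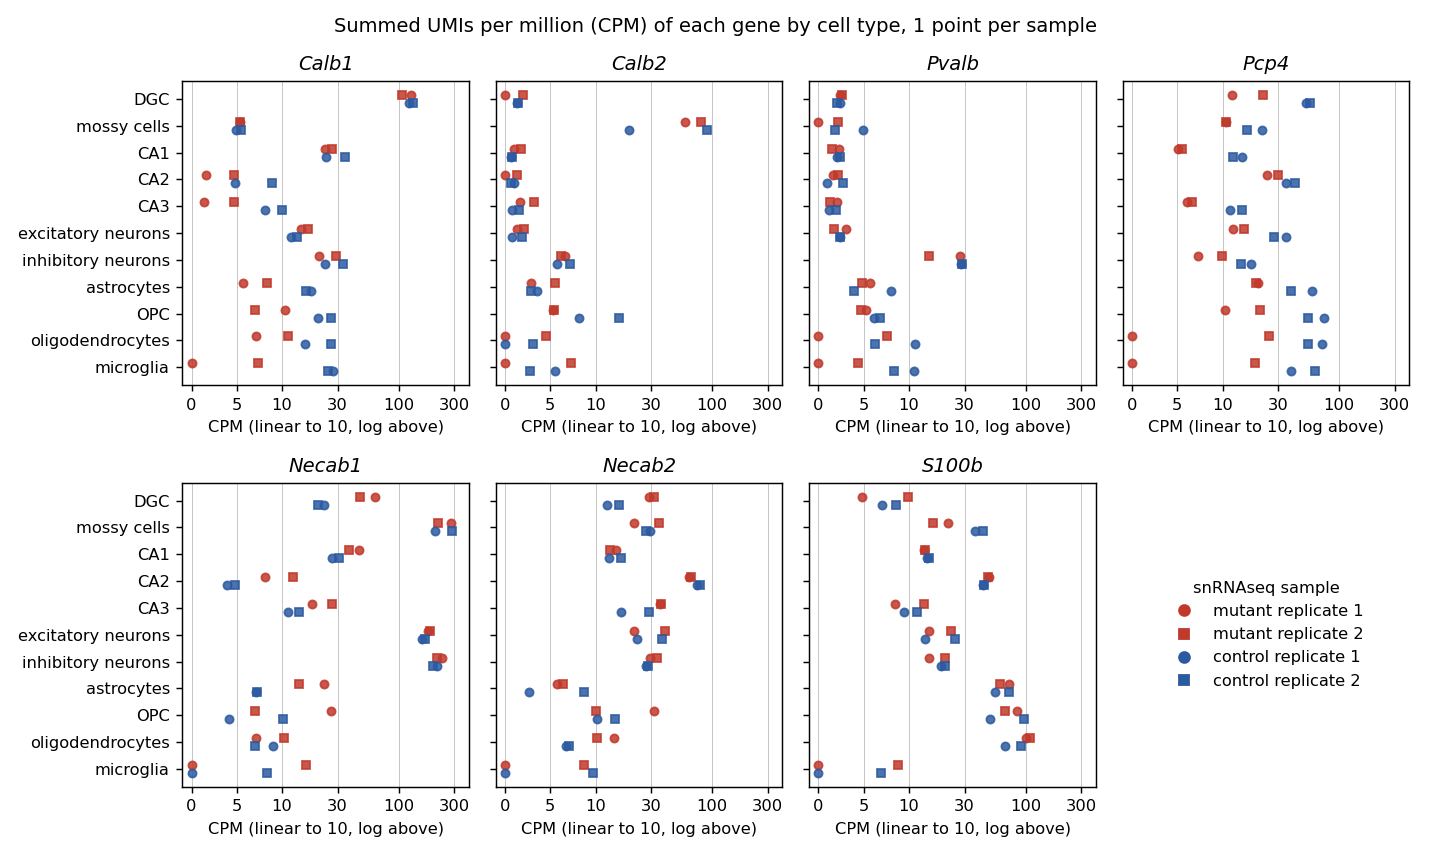
CPM of summed UMIs for the 7 genes (panels) in 11 cell types (rows), with 1 point per snRNAseq sample, red for mutants and blue for controls, on an axis that is linear to 10 CPM and logarithmic above. Calb1 points of DGCs lie between 107 and 134 CPM, Calb2 stands out in mossy cells, Pvalb in inhibitory neurons and Necab2 in CA2, whereas red Pcp4 points lie left of blue ones in every type.

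The cell types that held the transcripts of a gene were not the same in both genotypes. Of all Calb1 UMIs, DGC nuclei held 74.0% (exact 95% binomial interval 72.0 to 76.0) and 66.0% (64.4 to 67.6) in control replicates 1 and 2, but 10.9% (8.24 to 14.0) and 21.1% (19.2 to 23.1) in mutant replicates 1 and 2. In mutants CA1 held the largest share of them, with 43.9% (39.4 to 48.4) and 40.7% (38.4 to 43.1). These intervals cover counting error only. For Pcp4 the DGC share was 49.3% and 49.4% in controls and 2.26% and 9.31% in mutants. Inhibitory neurons held most Pvalb UMIs in every sample, from 56.6% to 71.7%. Necab1 came mainly from the deposited inhibitory (38.1% to 43.7%) and excitatory (19.9% to 43.3%) types. The inhibitory type includes cluster 15, which went against its label, and cluster 14, whose transmitter identity was not clear. Cluster 15 held 421 of the 1159 Necab1 UMIs of the inhibitory type in mutant replicate 1 and 344 of 2731 in mutant replicate 2. In controls it held 58 of 856 and 17 of 1318. Mossy cells, at most 0.851% of the nuclei of any sample, held 15.7% and 23.8% of the Calb2 UMIs in mutants and 11.4% and 26.5% in controls.

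**Figure D3:**
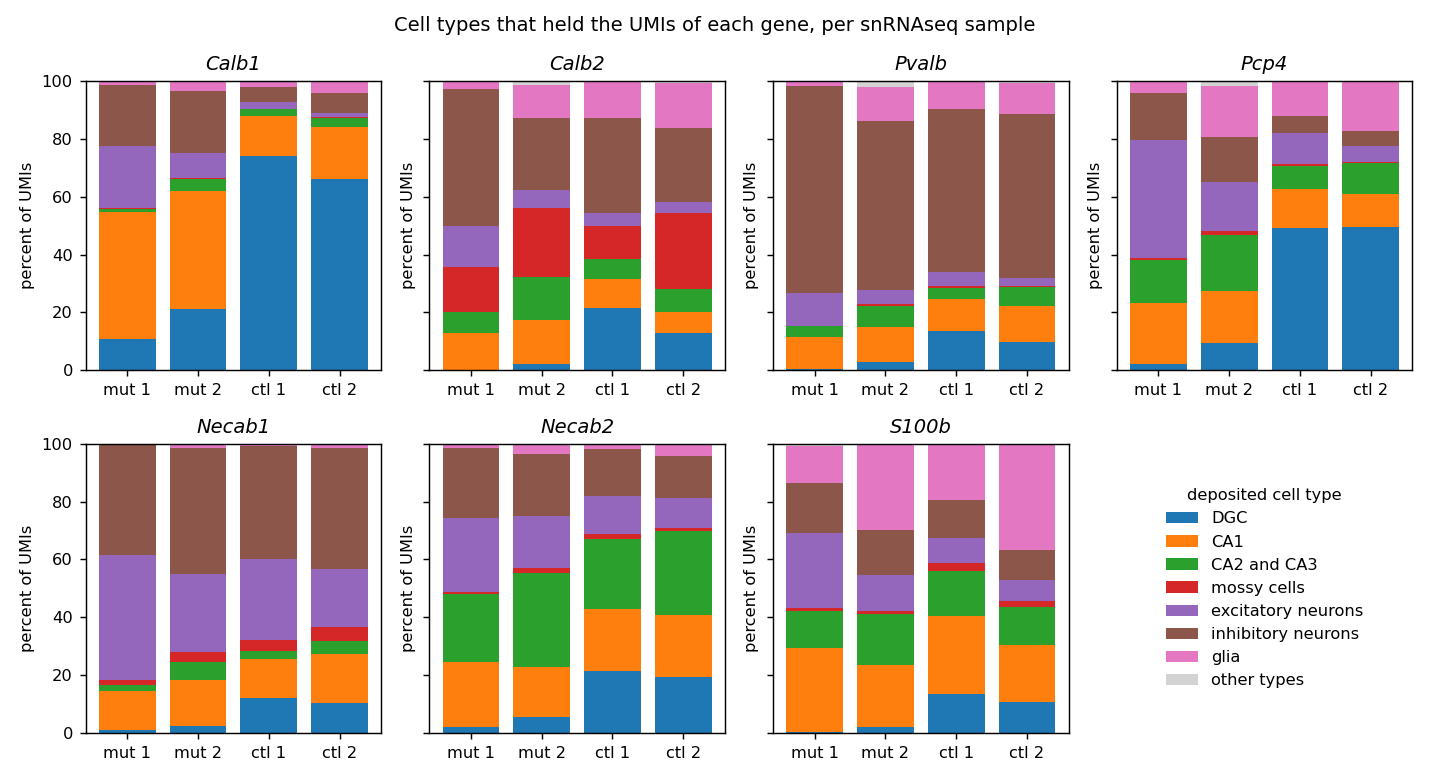
Percent of the UMIs of each gene (panels) that lay in each deposited cell type, as stacked bars for mutant (mut) and control (ctl) replicates 1 and 2. The DGC segment of Calb1 takes 74.0% and 66.0% in controls and 10.9% and 21.1% in mutants, and inhibitory neurons hold most of Pvalb in all 4 samples.

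The level over all nuclei of a sample was set beside the level it would have if each cell type kept its control level and only the shares of UMIs from each type followed the sample. For Calb1 the observed levels were 18.6 and 22.8 CPM in mutants and 48.4 and 53.7 CPM in controls, a log2 ratio of -1.30. With the levels of the types held, the log2 ratio was -1.06, close to the observed one. Without DGC nuclei Calb1 was at 16.8 and 18.8 CPM in mutants and 17.7 and 24.8 CPM in controls, and the groups overlapped. For Pcp4 the observed log2 ratio was -1.68 and the held one -0.48. For Necab1, at 116 and 81.7 CPM in mutants and 56.0 and 51.3 CPM in controls, the log2 ratios were 0.88 observed and 0.66 held, while the bulk log2 fold change was -0.020. The Pvalb log2 ratio was 0.13 observed and 0.42 held, and those of Calb2, Necab2 and S100b lay between 0.069 and 0.48 observed and between 0.13 and 0.22 held. These ratios are means of 2 mice per genotype with no test.

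Within DGCs, 2 of the 7 genes were called at FC above 2 and FDR below 0.05 in edgeR. Pcp4 was called lower, where 0.64% of all genes tested in DGCs were, and Necab1 higher, where 0.827% were. Pcp4 was at 12.1 and 22.2 CPM in mutants and 52.4 and 56.1 CPM in controls, on 5 and 76 UMIs in mutants. The groups did not overlap, and Pcp4 fell by 1.41 on the log2 scale (± 0.241; FDR 0.0260). Necab1 was at 62.8 and 46.7 CPM in mutants and 23.0 and 20.4 CPM in controls, and rose 2.38-fold (log2 fold change 1.25 ± 0.216; FDR 0.0262). Neither call held when a mutant mouse was left out: without mutant replicate 1 the FDR was 0.108 for Pcp4 and 0.129 for Necab1, and without mutant replicate 2 it was 0.392 for both. The log2 fold changes kept their direction, at -1.28 and -2.21 for Pcp4 and 1.12 and 1.49 for Necab1 without mutant replicates 1 and 2, and the Pcp4 value of -2.21 rested on the 5 UMIs of mutant replicate 1.

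Necab2 followed the same direction in DGCs just outside the threshold. It was at 29.0 and 31.5 CPM in mutants and 12.5 and 15.7 CPM in controls, with no overlap (log2 fold change 1.14 ± 0.244; FDR 0.0523). Calb1, the DGC marker, did not pass the test within DGCs, with a log2 fold change of -0.16 ± 0.175 (FDR 0.709) and overlapping groups. The remaining genes Calb2, Pvalb and S100b had FDRs of 0.860, 0.865 and 0.829 in DGCs, where Calb2 rested on 0 and 7 UMIs in mutants.

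Pcp4 was lower in mutants in all 10 types in which it could be tested, with log2 fold changes from -1.64 to -0.41, and the groups stood apart in each. The share of all genes with groups apart was not determined for any type, and the types come from the same mice. Groups that stand apart, here, in DGCs above and for Calb1 below, are therefore only a description. Outside the DGCs no type passed the FDR threshold in this fit, but with no filter on low counts Pcp4 was also called lower in CA1, CA3, OPCs, astrocytes, excitatory neurons and oligodendrocytes, at FDRs of 0.0048 to 0.040. DESeq2 called it in CA1 as well (FDR 0.0203). In astrocytes Pcp4 was at 20.1 and 19.5 CPM in mutants and 58.1 and 38.8 CPM in controls (-1.21 ± 0.299; FDR 0.0900), and in CA1 at 5.04 and 5.57 CPM and 14.7 and 12.4 CPM (-1.36 ± 0.232; FDR 0.421). Calb1 was lower in 8 of 9 types tested, with 0 called, and was lower with groups apart in CA3, astrocytes, OPCs, oligodendrocytes and microglia. In astrocytes it was at 5.73 and 8.35 CPM in mutants and 17.9 and 16.01 CPM in controls. DGC nuclei held 1.57% and 4.48% of all UMIs of mutant samples and 29.2% and 26.4% of those of control samples, and the glial types thus had less Calb1 and Pcp4 in the samples with few DGC UMIs. The part of this in the Pcp4 difference of DGCs was not tested.

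Necab1 was higher in mutants in all 9 types tested, with log2 fold changes from 0.0081 to 1.37, and was called only in DGCs. The excitatory and inhibitory types pool clusters. Within every such cluster tested except inhibitory cluster 12, Necab1 was lower in mutants, as given below. In CA1 it was at 45.7 and 37.2 CPM in mutants and 27.0 and 31.0 CPM in controls (0.49 ± 0.171; FDR 0.437), and in astrocytes at 22.9 and 13.9 CPM in mutants and 7.15 and 7.28 CPM in controls (1.17 ± 0.452; FDR 0.329). The types that hold most Necab1 UMIs were also a larger share of mutant nuclei. Inhibitory neurons made up 19.4% and 15.8% of them against 8.997% and 9.12% in controls, and excitatory neurons 34.6% and 12.4% against 10.6% and 6.02%. The part of these shares in the DGC difference was not tested. Necab2 was higher in 8 of 10 types tested and lower in the other 2, S100b higher in 6 of 10, Calb2 higher in all 6 tested and Pvalb lower in 4 of 6, with 0 called. In inhibitory neurons, the main source of Pvalb, its log2 fold change was -0.40 ± 0.291 (FDR 0.620). Leaving out mutant replicate 1 gave -0.90, and leaving out mutant replicate 2, which had the lowest level, gave 0.029, so that its sign rested on that mouse. In mossy cells S100b was at 21.4 and 16.1 CPM in mutants and 36.5 and 43.4 CPM in controls, on 4 to 24 UMIs (-1.19 ± 0.449; FDR 0.347).

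Over all 7 genes and 11 types, 60 of 77 pairs passed the filter on low counts, which a gene can pass through the group where it is high, and 2 pairs were called, both in DGCs. The shares of all genes called, in both directions, were 0% in CA1, CA3 and excitatory neurons, 0.00992% in CA2, 0.0193% in inhibitory neurons, 0.0562% in microglia, 0.0892% in oligodendrocytes, 0.132% in OPCs, 0.383% in astrocytes and 0.59% in mossy cells.

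**Figure D4:**
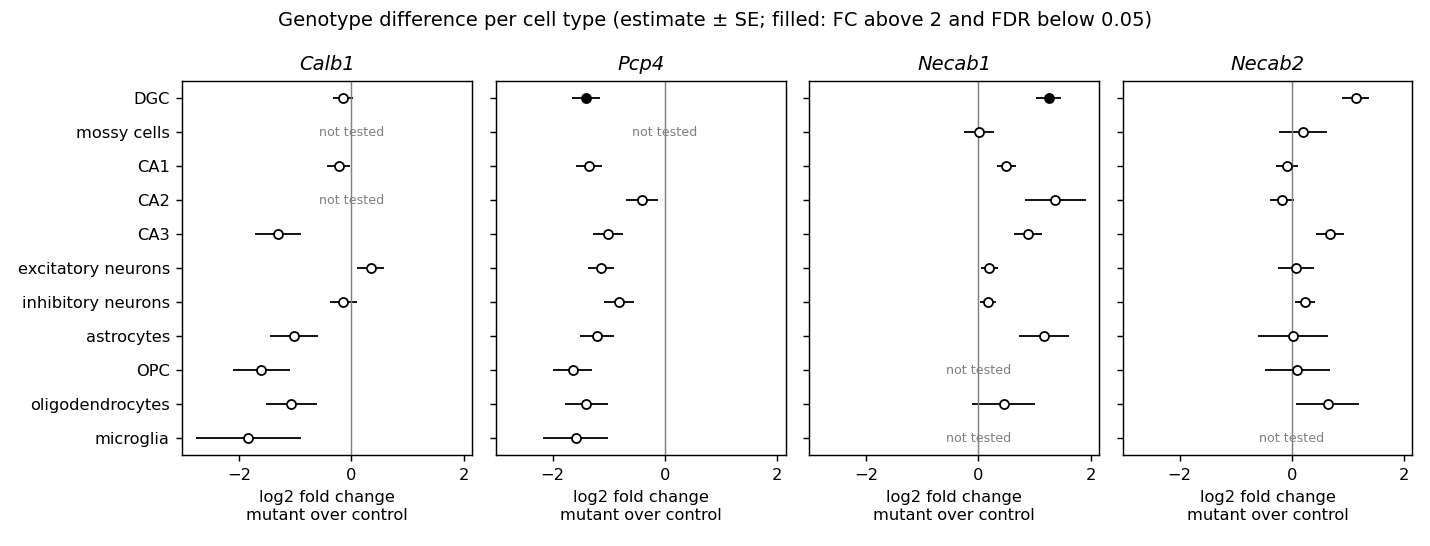
Log2 fold change of mutant over control (x axis, estimate ± SE from 2 mice per genotype) of Calb1, Pcp4, Necab1 and Necab2 in 11 cell types (rows), with filled points for FC above 2 and FDR below 0.05. Pcp4 lies left of 0 in all 10 types tested and Necab1 right of 0 in all 9, and only their DGC points are filled. The Necab1 value of mossy cells is only 0.0081, and most tested clusters of the excitatory and inhibitory types had lower Necab1 in mutants.

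Whether the genotype difference in DGCs exceeded that in CA1 was tested directly, as an interaction with the mouse as a block. Of the 7 genes, 2 were called at FDR below 0.05, both with a higher difference in DGCs, where 1.51% of all genes were called in that direction and 2.52% in both. For Necab2 the log2 difference between DGCs and CA1 was 1.26 ± 0.221 (FDR 1.06e-04), with CA1 at 14.9 and 13.2 CPM in mutants and 12.96 and 16.4 CPM in controls. For Necab1 it was 0.79 ± 0.183 (FDR 0.00578). Without mutant replicate 2, whose 463 nuclei make up most mutant DGCs, neither passed, at FDRs of 0.604 for Necab2 and 0.464 for Necab1. Necab1 was also lost without control replicate 1 (FDR 0.0540) or control replicate 2 (FDR 0.414). For Pcp4 the interaction was -0.11 ± 0.251 (FDR 0.934) and for Calb1 -0.023 ± 0.160 (FDR 0.988), so that the Pcp4 difference of DGCs was not shown to differ from that of CA1.

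DGC nuclei along the long axis of the hippocampus are distinguished by Lct, a dorsal transcript, and Trhr, a ventral one. Nuclei with a UMI of Lct but not Trhr numbered 4 and 19 in mutants and 256 and 352 in controls, and those with Trhr but not Lct 18 and 138 in mutants and 61 and 82 in controls. In control nuclei with Lct, Necab2 was at 5.24 and 10.6 CPM (7 and 33 UMIs), and in those with Trhr at 23.2 and 29.4 CPM (9 and 23 UMIs), ratios of 4.43 and 2.78. Necab1 was likewise higher in both controls in the nuclei with Trhr, at 28.4 and 37.1 CPM against 23.2 and 16.7 CPM, but not in mutant replicate 2, at 45.5 CPM with Trhr and 53.2 CPM with Lct. Calb1 was at 144 and 178 CPM with Trhr and 133 and 139.8 CPM with Lct, and Pcp4 at 54.1 and 39.7 CPM with Trhr and 54.6 and 62.5 CPM with Lct. Mutant nuclei with Lct held only 1 and 8 UMIs of Necab1 and 1 and 3 UMIs of Necab2, and those with Trhr had 32.6 and 39.1 CPM of Necab2 (3 and 43 UMIs), 97.7 and 45.5 CPM of Necab1 (9 and 50 UMIs) and 10.9 and 21.8 CPM of Pcp4 (1 and 24 UMIs). With only 1 to 9 UMIs of these 3 genes in mutant replicate 1, no genotype difference is read from the nuclei with Trhr. The part of the Trhr share in the genotype differences was not tested.

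The deposited neuron types pool several clusters, and the calcium-binding genes separated these. Among the 5 excitatory clusters, Necab1 was highest in cluster 10, at 425 and 359 CPM in mutants and 443 and 389 CPM in controls. It was at 57.5 and 27.3 CPM in mutants and 71.1 and 44.4 CPM in controls in cluster 8, and at 0 to 39.6 CPM in cluster 19. Inhibitory cluster 18 had 337 and 331 CPM of Necab1 in mutants and 350 and 393 CPM in controls, and inhibitory cluster 12 only 87.4 and 99.0 CPM and 54.9 and 69.9 CPM. Inhibitory cluster 15 had 539 and 401 CPM in mutants and 424 CPM in control replicate 1, and held 143, 102, 15 and 1 nuclei in mutant replicates 1 and 2 and control replicates 1 and 2. Necab2 was higher in inhibitory cluster 12 (44.6 to 60.3 CPM) than in inhibitory cluster 5 (21.6 to 25.9 CPM) in every sample. Calb1 in excitatory cluster 10 was at 35.0 and 32.4 CPM in mutants and 19.7 and 42.0 CPM in controls, and in clusters 13 and 8 between 1.55 and 6.35 CPM. Pvalb was highest in inhibitory cluster 5, at 39.0 and 18.7 CPM in mutants and 32.9 and 33.4 CPM in controls.

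Over the 9 clusters that had 10 or more nuclei in each sample, 34 of 63 pairs of gene and cluster passed the filter, and 0 were called by edgeR. At an unadjusted p under 0.05 there were 6 pairs, of which 5 were Pcp4 lower in mutants and 1 Necab1 higher in inhibitory cluster 12 (0.61 ± 0.226, FDR 0.438). The share of all genes at that p was not determined, so that these 6 pairs are only a description. In excitatory clusters 7, 8, 10 and 13 the Necab1 log2 fold change was between -0.42 and -0.044, although that of the pooled excitatory type was 0.19 ± 0.152. Cluster 10, with the most Necab1 of these, held 286 and 368 nuclei in mutants and 74 and 40 in controls. In inhibitory clusters 5, 14 and 18 the Necab1 log2 fold change was -0.14, -0.13 and -0.14. That of the pooled inhibitory type was 0.17 ± 0.146. The shares of all genes called were 0.0482% in excitatory cluster 10, 0.0735% in inhibitory cluster 12, 0.00713% in inhibitory cluster 5 and 0% in the other 6 clusters.

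Within inhibitory clusters 5, 12 and 18, in which Gad1 and Gad2 exceeded Slc17a7, nuclei with a UMI of an interneuron class marker were compared with those without, as a description. Calb2 was 3.005 to 10.3 times as high in nuclei with Vip, which marks interneurons that target other interneurons, at 36.9 and 35.6 CPM in mutants and 26.4 and 18.4 CPM in controls, on 9 to 36 UMIs. Pvalb was 1.72 to 2.48 times as high in nuclei with Lhx6, a transcription factor of interneurons from the medial ganglionic eminence, but only 0.384 to 0.572 times as high in those with Sst. Calb1 went the other way, at 1.06 to 1.58 times with Sst and 0.272 to 0.565 times with Pvalb.

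Necab1 and Necab2 ran with the markers of other interneuron classes. Necab1 was 2.15 to 3.105 times as high in nuclei with Cnr1, the cannabinoid receptor of cholecystokinin interneurons, and 2.03 to 2.73 times as high in those with Adarb2. Necab2 was 1.74 to 2.50 times as high in nuclei with Cck. S100b was 1.10 to 2.26 times as high with Pvalb. All of these held in the same direction in 4 of 4 samples, mutants and controls alike.

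The genes most like each member in level over the 11 types in controls were named by Pearson's r on log2(CPM + 1), among 13538 genes, as a description over types that share libraries. For Calb1 they were Fam84a (r = 0.85), Pnmal2 (0.83) and Il20rb (0.83), each highest in DGCs. Pvalb was followed by Npy (0.93), Slc32a1 (0.92) and Afap1 (0.92), all highest in inhibitory neurons, and Calb2 by Topors (0.93), Noc3l (0.87) and Drd2 (0.86). Necab1 was most like Gm11844 (0.98), Gm48893 (0.94) and Samm50 (0.94), the first of which lies antisense within Necab1. Necab2 was most like Slc25a22 (0.95), Gm14377 (0.94) and Ptpn5 (0.94), which were highest in CA2, and S100b like Chst3 (0.91), Rhobtb3 (0.88) and Zc4h2 (0.87). For Pcp4 the genes were Fam117a (0.92), Sf3a2 (0.89) and Sf3b2 (0.88), highest in OPCs, astrocytes and oligodendrocytes.

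Other calcium-binding genes were counted in 4 lists. In bulk, 0 genes of any list passed FDR below 0.05 in edgeR, of 24, 16, 9 and 10 tested. In DGCs, 1 of 23 EF-hand sensors and buffers was called lower, Necab3, at 19.3 and 13.1 CPM in mutants and 31.9 and 35.9 CPM in controls (-1.24 ± 0.258; FDR 0.0475). The list's median log2 fold change was -0.00014, against -0.013 over all genes. Of 15 calmodulin genes and partners, 1 was called lower: Nrgn, encoding neurogranin, which like Pcp4 binds calmodulin, was at 133 and 139 CPM in mutants and 386 and 408 CPM in controls (-1.53 ± 0.161; FDR 0.00459).

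Of 10 calcium-binding proteins of the endoplasmic reticulum tested in DGCs, 9 were lower and 2 were called lower, where 0.64% of all genes were. Hspa5, the chaperone BiP, was at 24.1 and 29.8 CPM in mutants and 70.9 and 98.8 CPM in controls (-1.56 ± 0.246; FDR 0.0184). Calr, encoding calreticulin, was at 58.0 and 62.8 CPM in mutants and 111 and 160 CPM in controls (-1.14 ± 0.228; FDR 0.0434). The median of this list was -0.32 in DGCs. Its members were mostly lower in the other types too, with 9 of 10 and a median of -0.41 in excitatory neurons, 7 of 8 and -0.44 in mossy cells, 7 of 9 and -0.50 in oligodendrocytes and 8 of 10 and -0.29 in inhibitory neurons, where 0 passed the test. In bulk 8 of 10 were higher.

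The S100 list included S100pbp and left out S100b, whose log2 fold change in DGCs was 0.21 ± 0.359. Of this list 4 genes could be tested in DGCs, and all were lower with a median of -0.82, with 0 called. In excitatory neurons 6 of 6 were lower (median -0.75), in CA1 5 of 6 (-0.32) and in inhibitory neurons 5 of 7 (-0.30). Outside DGCs 0 genes of any list were called in any type, and a difference of these lists between DGCs and other types was not tested.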

How the data were processed

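The genotype and replicate of each bulk RNAseq and snRNAseq sample came from its title. For bulk libraries the authors aligned reads to mm10 with RSEM 1.3.0 and Bowtie2 2.2.9 and deposited an expected count and a TPM value per gene, and a matrix of signal, in which each library's expected counts are divided by a size factor. The snRNAseq reads were processed by the authors with Cell Ranger 3.1.0 with a pre-mRNA index, and the deposited files give, per nucleus, a UMI count for each gene, a size factor per nucleus, which is the ratio of its UMIs to the typical nucleus, and a cell type and cluster from Monocle 3. The ratio was not used. Removal of doublets is not given in the sources used here, and no caller was run.

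Expected counts were rounded and compared with edgeR 4.0.16 (quasi-likelihood, filterByExpr, TMM; R 4.3.3), with Benjamini-Hochberg adjustment over all genes of a fit (FDR). Bulk calls used FC above 3 and cell type calls FC above 2, both with FDR below 0.05, and interactions FDR below 0.05 alone. EBSeq, the study's tool, was not run. UMIs were summed per mouse and cell type or cluster (10 or more nuclei per sample) and tested likewise. SEs were obtained from the log2 fold change and the F statistic. The types labelled CP and EC had under 10 nuclei in some samples and were left out. The smallest p of an exact permutation test of 2 against 2 mice is 0.33. Nuclei were thinned to 1500 UMIs with a fixed seed. Intervals are exact binomial (Clopper-Pearson, 95%) and the limit for a count of 0 is 3 counts. Tests were also run on counts simulated from fitted means and dispersions. That setting has no shift in cell mix, and no result given here rests on it.

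The 7 genes and the lists were chosen with earlier results of these data known. The genes named are these 7, for each the 3 genes most like it among those reaching 10 CPM in a type, the genes of the 4 lists past the threshold, Wls, Xist and Ddx3y, and markers where a label was checked. Alternatives were DESeq2 1.42.0, RLE scaling or totals, no filter on low counts, the authors' signal matrix as log2(value + 1) in limma 3.58.1, the replicate number as a block, leaving out some nuclei or clusters, and leaving out each sample in turn.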

Additional observations from a re-analysis of the deposited data

Results flagged for a closer look

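The genotype difference in DGCs exceeded that in CA1 for 2 genes by the test of the interaction, where 1.51% of all genes were called in that direction and 2.52% in both. For Necab2 the log2 difference was 1.26 (FDR 1.06e-04, edgeR). For Necab1 it was 0.79 (FDR 0.00578). Both rested on 90 and 463 DGC nuclei of the mutants. The mix of dorsal and ventral DGC nuclei also differed between genotypes. Nuclei with Trhr but not Lct numbered 18 and 138 in mutants and 61 and 82 in controls. Those with Lct but not Trhr numbered 4 and 19 in mutants and 256 and 352 in controls. The part of this mix in the interaction was not tested. Without mutant replicate 2 the FDR was 0.604 for Necab2 and 0.464 for Necab1, and Necab1 was also lost without control replicate 1 (0.0540) or 2 (0.414).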

How the results depend on the processing

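With 2 mice per genotype, 90 and 463 mutant DGC nuclei and few UMIs per gene, small differences could not be detected. Bulk calls at both thresholds stayed at 0. Pairs of gene and cell type called lower, 1 as reported, numbered 2 with DESeq2, 8 with no filter on low counts and 7 with the replicate block, and 2 to 3 with 1 sample left out. With no filter, 7 of these were Pcp4 and 1 was Calb1 in CA3. With the replicate block 6 were Pcp4 (in DGCs, CA1, CA3, OPCs, excitatory neurons and oligodendrocytes) and 1 was Calb1 in CA3. Pairs called higher, 1 as reported, numbered 2 with no filter, with the replicate block or with library totals only, and 0 to 5 with 1 sample left out. Pairs of gene and cluster called lower, 0 as reported, numbered 2 with no filter, 2 with the replicate block and 0 to 2 with 1 sample left out. In the labels same-numbered mice share only a number (correlation of their deviations 0.021 in bulk and 0.042 to 0.36 in cell types). In bulk they also share Xist status, which was high in replicate 2 of each genotype. The replicate block in bulk therefore cannot be told apart from a block for Xist status. Interaction calls, 2 as reported, numbered 0 to 2 with 1 sample left out, an alternative added after seeing the data because leaving out a replicate number left no residual degrees of freedom and was not run. Directions turned for differences near 0. In bulk, leaving out 1 library gave -1.09 to 0.22 for Calb2 and -0.037 to 0.23 for S100b. In DGCs it gave -6.73, against 0 UMIs in the remaining mutant, to 0.55 for Calb2 and -0.74 to 0.40 for S100b. Calb1 ranged from -0.46 to 0.032 in CA1 and from -0.41 to 0.12, with 0.036 without mutant replicate 1, in inhibitory neurons. Necab1 in inhibitory neurons was -0.068 within clusters 5, 12 and 18. Necab1 in mossy cells was -0.019 with no filter or with library totals, -0.030 with the replicate block, -0.00056 with RLE scaling, -0.040 without nuclei of the most UMIs, and -0.21 to 0.26 with 1 sample left out. At FDR below 0.05 alone, bulk calls numbered 1 lower and 1 higher. Pcp4 also passed with DESeq2 (FDR 0.00151) and with no filter (FDR 3.00e-04), and with the replicate block Pvalb had an FDR of 0.0599. Pvalb in inhibitory neurons ranged from -0.90 to 0.029 with 1 sample left out. The causes were not tested.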
